A study of Mus musculus with 8 samples.

Results

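Glycolysis and the hypoxia response are represented here by 33 named genes. They are 17 enzymes of the glycolytic chain, 3 regulators of its flux, 4 genes of hypoxia-inducible factor (HIF) and its oxygen sensors, and 9 genes known to respond to low oxygen. All 33 were matched among the 43629 genes of the count tables, and all 33 were among the 17129 genes with enough counts to be tested. They were measured by RNA sequencing of lower first molars of mouse embryos at E18.5, late in gestation, with the left and the right molar of an embryo pooled into 1 library. The 4 controls, called WT here, were Jagged1fl/fl littermates (J3, J5, J6 and J7), which carry the floxed Jagged1 alleles and for which the labels name no Cre. The 4 mutants were K14Cre;Jagged1fl/fl embryos (K14J26, K14J28, K14J29 and K14J30), in which Cre under the keratin 14 promoter deletes the Notch ligand Jagged1 in epithelial cells, while the dental mesenchyme keeps the gene. The comparison asks how epithelial loss of Jagged1 changes transcript levels in the whole molar. Since whole molars were sequenced, fewer cells of a type and less RNA per cell cannot be told apart.

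Glycolysis splits glucose into pyruvate in a chain of steps, and lactate dehydrogenase can turn pyruvate into lactate so that the chain keeps running without oxygen. When oxygen is plentiful, prolyl hydroxylases of the Egln family mark the HIF alpha subunits for destruction. When it is scarce, HIF accumulates, binds a short core sequence near its targets and raises many glycolytic genes together with angiogenic and adaptive genes such as Vegfa. The late tooth germ mixes an epithelium that forms enamel, a mesenchyme that forms dentin, and ingrowing vessels.

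Totals ran from 17327224 to 29792467 counts per embryo, and 3 counts correspond to at most 0.166 CPM (counts scaled to the TMM-normalised library size). Jag1 (chr2:137081456-137116644, GRCm38) was between 95.2 and 104 CPM in WT molars, and at 33.99 (K14J26), 39.0 (K14J28), 46.0 (K14J29) and 57.1 CPM (K14J30) in mutant molars. The groups did not overlap, and the log2 fold change of mutant over WT was -1.19 ± 0.14 (SE, adjusted p = 0.00517). K14J26 stood apart from the other libraries with a TMM factor of 0.843, against 0.969 to 1.04 in the other 7. Markers of other cells differed between embryos. The summed level of 7 ameloblast markers, of the enamel-forming cells, ran from 711 to 3423 CPM in WT molars and from 3959 to 114747 CPM in mutant molars. It was highest in K14J26. Of the 6 markers tested, 5 were called higher, and Klk4 had a log2 fold change of 3.52 that was not called (adjusted p = 0.0533). Of these markers, Amtn was at most at 0.166 CPM and Klk4 at most at 0.830 CPM in WT molars. The summed level of 5 odontoblast markers, of the dentin-forming cells, ran from 4506 to 8442 CPM in WT and from 7810 to 24159 CPM in mutants, with 4 of 5 called higher. Osteoclast and macrophage markers summed to 1816 and 172 CPM in K14J28, against at most 685 and 117 CPM in the other 7 embryos. The macrophage sum was raised there by Csf1r (92.8 CPM) and Cd68 (42.3 CPM). Mrc1 (13.7 CPM) and C1qa (7.95 CPM) lay under every WT embryo, and Adgre1, Aif1 and Cx3cr1 lay within the WT range. The part of these markers in the values of K14J28 was not tested. Skeletal muscle markers summed to 460 CPM in J6 and 227 CPM in J7 and did not exceed 22.9 CPM elsewhere. The labels do not give sex, and Xist reached 1929.7 CPM in K14J28 and 1468 in K14J29 but did not exceed 1.09 elsewhere. The keratins and transcription factors of the dental epithelium (summed 4657 to 5371 CPM in WT, 5486 to 8083 CPM in mutants) and the markers of dental mesenchyme (1186 to 1328 CPM and 1110 to 1350 CPM) were detected in every embryo. The epithelial sums did not overlap between the groups, with 1 of 6 markers called higher (Krt14), while of the 6 mesenchyme markers 4 were called lower (Msx1, Pax9, Barx1 and Lhx8) and 1 higher (Pdgfra). The part of these in the values of the members was not tested.

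HIF binds the core sequences ACGTG and GCGTG, so the DNA before the start of the member genes was searched for both on either strand, and CACGTG, which reads the same on both strands, counted on each. The windows are those of RefSeq on GRCm38.p6, from 250 bases before the start to 50 after it. They were present for 30 of the 33 members, and not for Epas1, Ndrg1 and Bhlhe40. A core sequence occurred in 27 of the 30 (90%), against 65.0% of the 12072 tested genes with a window and 46.7% of all 27025 genes with one. Gpi1, Tpi1 and Eno2 held none. All 5 of the members with a window that were higher in the mutant and both of those that were lower held a core sequence. So did 20 of the 23 that were not called. A sequence present in 27 of the 30 could hardly separate members that changed from the rest, so nothing is concluded from this. A match is a description of the letters and no evidence of binding. The stretches printed here are the parts of these windows that lie before the annotated gene, for 2 members that were higher in mutant molars (Pgam1 and Ddit4) and 2 that were lower (Pdk1 and Egln1). They show that the same letters stand before genes that moved in opposite directions. Each reads 5′ to 3′ on the strand of the gene, with the core sequence in capitals (CACGT and CACGC are the cores read on the other strand). The Pgam1 stretch is chr19:41911621-41911870 (plus strand), the Ddit4 stretch chr10:59951835-59952020 (minus strand), the Pdk1 stretch chr2:71872974-71873223 (plus strand) and the Egln1 stretch chr8:124949325-124949504 (minus strand).
Pgam1: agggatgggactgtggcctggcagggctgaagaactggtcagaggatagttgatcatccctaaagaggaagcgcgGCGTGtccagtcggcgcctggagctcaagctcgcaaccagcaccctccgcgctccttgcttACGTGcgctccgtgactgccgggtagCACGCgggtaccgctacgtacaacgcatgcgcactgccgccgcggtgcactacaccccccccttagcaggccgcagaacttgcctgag
Ddit4: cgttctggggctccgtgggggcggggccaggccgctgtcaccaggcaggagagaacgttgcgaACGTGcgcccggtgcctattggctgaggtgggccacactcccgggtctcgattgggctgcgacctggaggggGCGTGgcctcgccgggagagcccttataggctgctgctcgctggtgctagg
Pdk1: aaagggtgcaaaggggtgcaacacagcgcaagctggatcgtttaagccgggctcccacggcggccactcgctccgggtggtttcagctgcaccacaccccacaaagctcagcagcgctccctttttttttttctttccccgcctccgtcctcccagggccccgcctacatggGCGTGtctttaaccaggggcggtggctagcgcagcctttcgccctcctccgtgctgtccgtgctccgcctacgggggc
Egln1: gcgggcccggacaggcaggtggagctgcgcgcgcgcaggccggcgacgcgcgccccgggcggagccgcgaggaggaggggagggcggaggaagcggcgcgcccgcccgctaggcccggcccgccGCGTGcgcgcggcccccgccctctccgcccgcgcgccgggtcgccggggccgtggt

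Across the 33 genes, 6 were higher and 3 were lower in mutant molars at an adjusted p under 0.05. Among all genes tested, 9.52% were called higher and 6.61% lower, and the members' shares can be read against these. The genes called higher were Ndrg1, P4ha2, Pfkfb4, Ddit4, Pgam1 and Vegfa, and those called lower were Pdk1, Bhlhe40 and Egln1. The median log2 fold change was 0.02 over the members and 0.01 over all genes, and the median size of the change without its sign was 0.21 and 0.22. A second threshold asked for an unadjusted p up to 0.05 and also for a log2 fold change of 0.5 or more in size. It was passed by 4 members, all higher (Ndrg1, P4ha2, Pfkfb4 and Ddit4), where 14.2% of all genes passed. For 10 members the WT and mutant values lay apart, 5 of them higher and 5 lower, against 24.2% of all genes. The calls depended on single embryos. Without J3, J7 or K14J29, no member was called in either direction (3, 3 and 2 passed the second threshold), and without J5 Bhlhe40 alone was called. Calls over all genes fell in the same fits, from 1631 higher and 1133 lower in the main fit. They were 373 and 287 without J3, 300 and 236 without J7, 250 and 170 without K14J29, and 451 and 388 without J5. Over the 8 fits with 1 embryo left out, Bhlhe40 stayed called in 5, Ndrg1, Pfkfb4, Ddit4 and Pgam1 in 4, P4ha2 and Vegfa in 3, and Pdk1 and Egln1 in 2. All 9 kept their direction in all 20 alternative fits. By DESeq2, 7 members were higher and 4 lower, where 13.1% of the genes with an adjusted p were higher and 10% lower. At an unadjusted p under 0.05, 7 members were higher and 5 lower, against 19.1% and 15.7% of all genes.

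**Figure D1:**
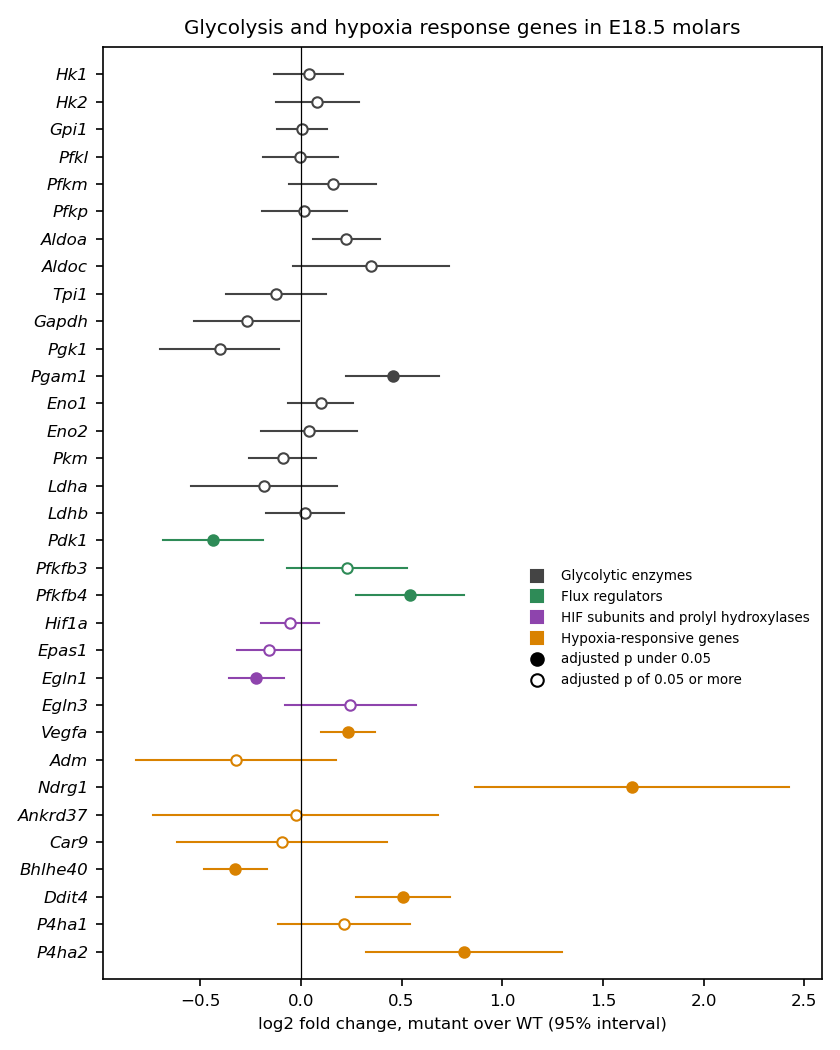
Log2 fold change of mutant over WT (horizontal axis, point) with its 95% interval (line) for the 33 genes, coloured by role and filled where the adjusted p was under 0.05. Ndrg1 stands to the right at 1.65, while most glycolytic enzymes lie near 0.

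The glycolytic enzymes as a group showed little net change. Of the 17 enzymes, Pgam1 was called higher and none was called lower by edgeR (2 were lower at an unadjusted p under 0.05, and 1 by DESeq2), and their median log2 fold change was 0.02. Their summed level was 4161, 3951, 3907 and 4037 CPM in J3, J5, J6 and J7, and 3513, 3866, 3987 and 4147 CPM in K14J26, K14J28, K14J29 and K14J30. The WT mean was 4014 ± 112 CPM (SD, n = 4) and the mutant mean 3878 ± 270 CPM (SD, n = 4), and 4000 CPM without K14J26, which was the lowest of the 8 embryos. The groups overlapped.

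Pgam1 (chr19:41911923-41918660), phosphoglycerate mutase, moves the phosphate group late in the chain. It was at 70.9, 78.7, 84.5 and 77.5 CPM in J3, J5, J6 and J7 and at 112, 85.7, 116 and 113 CPM in K14J26, K14J28, K14J29 and K14J30. Each mutant exceeded each WT embryo, although K14J28 did so by little. The log2 fold change was 0.46 ± 0.10 (SE, adjusted p = 0.0227). It was 0.41 without J3 (adjusted p = 0.0693), 0.45 without J5 (0.0616) or without J7 (0.0725), and 0.41 without K14J29 (0.0718), so the call was lost without any 1 of these embryos. Reads on similar sequences, mostly the pseudogene Pgam1-ps2, came to 0.257% of the Pgam1 counts.

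The neighbouring step went the other way without passing the test. Pgk1 (chrX:106187100-106203699), phosphoglycerate kinase, makes the first ATP gained in the chain. Its level was 145, 136, 134 and 133 CPM in J3, J5, J6 and J7, and 74.1, 112, 107 and 120.02 CPM in K14J26, K14J28, K14J29 and K14J30. Each mutant lay under each WT embryo, with K14J26 far under the other 3. The log2 fold change was -0.40 ± 0.13 (SE, adjusted p = 0.0631), and without K14J26 it was smaller but passed the test (-0.27, adjusted p = 0.0182), as it did with DESeq2 (-0.41, adjusted p = 0.0248). Pgk1 is on the X chromosome, and with Xist as a covariate its value was -0.51 (adjusted p = 0.0695). With the level of enamel genes as a covariate, a fit described with Ndrg1, it was -0.04 (adjusted p = 0.883).

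Aldoa, aldolase A, was at 346 to 377 CPM in WT and 371 to 450.2 CPM in mutants. The difference of 0.23 ± 0.07 on the log2 scale (SE, adjusted p = 0.0657) passed the test without K14J28 (0.28, adjusted p = 0.0159) and with DESeq2 (0.22, adjusted p = 0.0386). It was 0.12 (adjusted p = 0.283) when scaled by library size alone and 0.04 (adjusted p = 0.824) with the enamel covariate. Its isozyme Aldoc had a difference of 0.35 (adjusted p = 0.181). Gapdh, which oxidises glyceraldehyde 3-phosphate and is often used as a reference transcript, was at 786, 715, 681 and 721 CPM in J3, J5, J6 and J7 and at 462, 648, 617 and 684 CPM in the mutants in the order given above. K14J30 overlapped the WT range and K14J26 was lowest, and the log2 fold change was -0.27 ± 0.12 (SE, adjusted p = 0.132). Without K14J26 it was -0.16 (adjusted p = 0.130), and with the enamel covariate 0.07 (adjusted p = 0.764). Many processed pseudogenes resemble Gapdh, and reads on 174 of them amounted to 3.17% of its counts.

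Ldha, the lactate dehydrogenase subunit that HIF is known to raise, showed a difference carried by 1 embryo. It was at 480 (J3), 448 (J5), 435 (J6) and 482 CPM (J7) in WT molars, and at 265 CPM in K14J26 against 419 to 470.4 CPM in the other 3 mutants. The log2 fold change was -0.18 (adjusted p = 0.441), and -0.03 without K14J26. Ldhb, the other subunit, had a value of 0.02 (adjusted p = 0.889).

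The remaining enzymes stayed within a narrow range. Hexokinases Hk1 and Hk2, which trap glucose in the cell, had log2 fold changes of 0.04 and 0.08. Glucose-6-phosphate isomerase, Gpi1, had 0.01 with a 95% interval from -0.12 to 0.13, the narrowest of the members. The phosphofructokinases Pfkl, Pfkm and Pfkp, which commit sugar to the chain, had 0.00, 0.16 and 0.02. Triose phosphate isomerase, Tpi1, had -0.12, the enolases Eno1 and Eno2 had 0.10 and 0.04, and pyruvate kinase, Pkm, had -0.09. Without K14J26 the values of Tpi1 and Pkm were -0.02 and -0.03. None of these enzymes passed the test, and 9 of the 17 enzymes had a change of under 0.1 in size. The intervals leave room for modest changes: that of Hk2 ran from -0.12 to 0.29 and that of Pfkm from -0.06 to 0.37. Pfkp shares exon sequence with Pitrm1 on the other strand, which was at 144 CPM against 20.8 CPM for Pfkp, and since the library kit does not mark strand, reads of the shared sequence cannot be told apart.

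Levels between genes are compared per kilobase of annotated exon. In WT molars Gapdh had the highest level of the members at 176 ± 10.6 CPM per kb (SD, n = 4), followed by Pkm (149.99 ± 3.49), Ldha (139 ± 7.06) and Aldoa (123 ± 4.53). Neighbours in this order differed by more than their SD, except that the order depends on the length used: per kilobase of the longest transcript Pkm came first at 308 and Gapdh, at 221, came after Ldha and Aldoa. In each isozyme family 1 gene or a pair carried most of the transcript. Hk2 was 4.51 to 5.50 times Hk1 per kb across WT embryos and 4.34 to 5.77 times across mutants. Aldoc was at most 0.0293 times Aldoa and Eno2 at most 0.0295 times Eno1 in every embryo, so these forms, typical of brain, were minor. Ldha was 1.96 to 2.21 times Ldhb in WT and 1.08 (K14J26) to 2.37 times (K14J28) in mutants. These ratios overlapped between the groups in each family. Their size depends on the length used: per kilobase of the longest transcript the WT levels were 37.1 for Hk2 and 14.3 for Hk1, and 254 for Ldha and 80.4 for Ldhb.

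**Figure D2:**
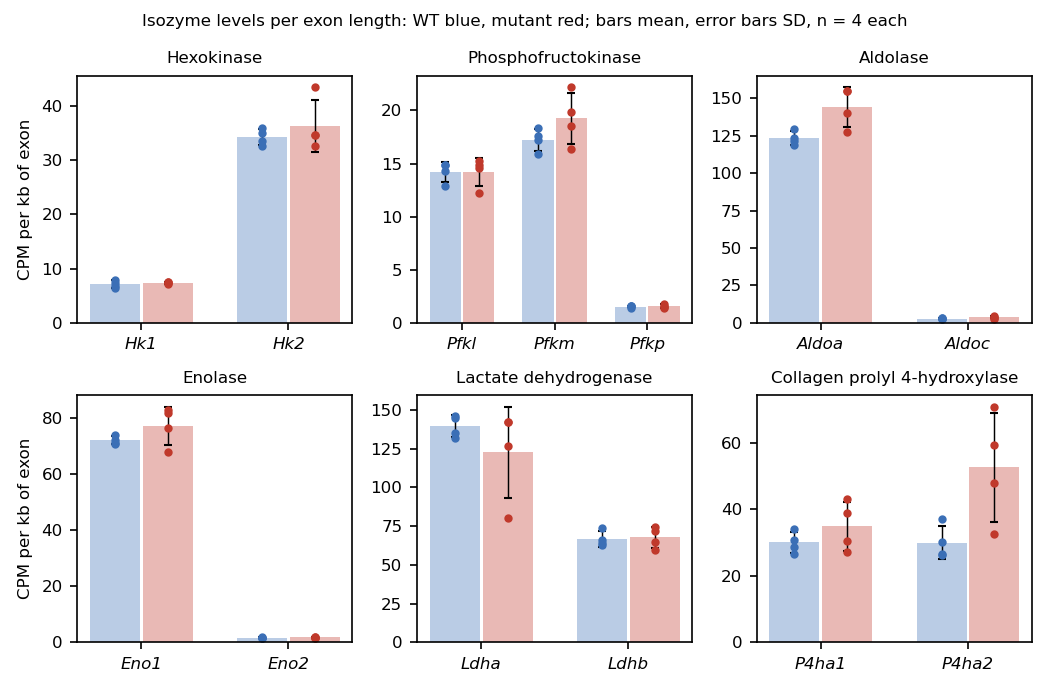
Levels in CPM per kb of exon for paralogous members in WT (blue) and mutant (red) molars, with points for embryos, bars for the mean and error bars for SD (n = 4 each). P4ha2 is at 29.96 CPM per kb in WT and 52.6 in mutants and P4ha1 at 30.1 and 34.9, and their ratio overlapped between the groups.

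The flux regulators moved in both directions. Pfkfb4 (chr9:108991778-109032228) makes and removes fructose 2,6-bisphosphate, the activator of phosphofructokinase. It was at 13.7, 14.5, 15.2 and 14.3 CPM in J3, J5, J6 and J7, and at 22.1, 16.2, 23.7 and 21.8 CPM in K14J26, K14J28, K14J29 and K14J30. The groups did not overlap, and K14J28 lay nearest to the WT values. On the log2 scale the difference was 0.54 ± 0.12 (SE, adjusted p = 0.0211), with an adjusted p of 0.0598 to 0.0686 without J3, J5, J7 or K14J29. Pfkfb3, an isozyme with strong kinase activity, was at 13.1 to 16.1 CPM in WT and 13.3 to 20.5 CPM in mutants, a value of 0.23 that did not pass (adjusted p = 0.245).

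Pdk1 (chr2:71873224-71903858), pyruvate dehydrogenase kinase, closes the entry of pyruvate into mitochondria and is a known HIF target. At 10.6 ± 0.261 CPM per kb (SD, n = 4) it was the highest flux regulator per length in WT molars. It was at 83.3, 79.5, 84.0 and 81.6 CPM in J3, J5, J6 and J7 and at 49.4, 74.1, 62.3 and 56.8 CPM in K14J26, K14J28, K14J29 and K14J30. Every mutant lay under every WT embryo. Pdk1 fell by 0.44 on the log2 scale (SE 0.11, adjusted p = 0.0316). The adjusted p was 0.0655 to 0.0817 without J3, J5, J6, J7, K14J29 or K14J30, and the value -0.35 (adjusted p = 0.0250) without K14J26. The other kinases of the family, Pdk2, Pdk3 and Pdk4, had values of 0.28, 0.32 and 0.01 and did not pass the test.

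The HIF subunits showed no called change. Hif1a, at 40.9 ± 1.84 CPM per kb (SD, n = 4) the highest of its group in WT molars, was at 229 to 255 CPM in WT and 218 to 249 CPM in mutants, a difference on the log2 scale of -0.05 with a 95% interval from -0.20 to 0.09. This is a transcript level, and HIF is controlled mainly as a protein. Epas1, the subunit HIF-2 alpha, which is abundant in endothelium, was at 106 to 114 CPM in WT and 87.4 to 105 CPM in mutants. The groups did not overlap, but the value of -0.16 did not pass the test (adjusted p = 0.144), while scaled by library size alone it was -0.26 (adjusted p = 0.0414) and with the enamel covariate -0.31 (adjusted p = 0.0990). The summed level of 9 endothelial markers was also lower in mutants, at 395 to 434 CPM in WT and 321 to 384 CPM in mutants, and 1 of the 9 was called lower. Their part in the Epas1 values was not tested.

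Egln1 (chr8:124908587-124949324), the main oxygen-sensing hydroxylase, was lower in mutant molars by a small and even amount. It was at 66.9, 68.0, 68.4 and 72.9 CPM in J3, J5, J6 and J7 and at 63.0, 60.2, 56.9 and 57 CPM in K14J26, K14J28, K14J29 and K14J30. The groups did not overlap. Egln1 fell by 0.22 on the log2 scale (SE 0.06, adjusted p = 0.0392). It stayed called without K14J26 (-0.25, adjusted p = 0.0199) and without K14J28, and had an adjusted p of 0.0761 to 0.108 without any of the other 6. With Xist as a covariate the value was -0.20 and not called (adjusted p = 0.112). Egln3, a hydroxylase that HIF itself is known to raise, was scarce at 3.21 to 4.05 CPM in WT and 3.61 to 4.85 CPM in mutants, a value of 0.25 (adjusted p = 0.252).

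Among the 9 hypoxia-responsive genes 4 were higher and 1 was lower, and the largest of the changes was in Ndrg1. Ndrg1 (chr15:66929318-66969640), a gene raised by low oxygen and by differentiation in many epithelia, was at 63.2, 93.5, 118 and 60.1 CPM in J3, J5, J6 and J7. In K14J26, K14J28, K14J29 and K14J30 it was at 399.6, 129.6, 313 and 205 CPM. Each mutant exceeded each WT embryo, by a wide margin in K14J26 and K14J29 and by little in K14J28. The log2 fold change was 1.65 ± 0.35 (SE, adjusted p = 0.0188), a 3.13-fold difference, and it was 1.37 (adjusted p = 0.0169) without K14J26. Without J3, J5, J7 or K14J29 the adjusted p was 0.0525 to 0.0651.

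P4ha2 (chr11:54100095-54131665) encodes the catalytic subunit of a collagen prolyl 4-hydroxylase, which stabilises the collagen triple helix. It was at 163, 187, 231 and 167 CPM in J3, J5, J6 and J7, and at 442, 203, 369 and 298 CPM in K14J26, K14J28, K14J29 and K14J30. K14J28 lay under J6, so the groups overlapped. Its difference on the log2 scale was 0.81 ± 0.22 (SE, adjusted p = 0.0359), 0.64 without K14J26 (adjusted p = 0.0427), and with an adjusted p of 0.0536 to 0.103 without J3, J5, J7, K14J29 or K14J30. In WT molars P4ha2 was at 29.96 ± 4.98 CPM per kb and its paralog P4ha1 at 30.1 ± 3.14 CPM per kb (SD, n = 4 each), a difference within the SD, and per kilobase of the longest transcript they were at 61.1 and 30.6. P4ha1 was at 109 to 139.9 CPM in WT and 111 to 177 CPM in mutants, a value of 0.21 that did not pass (adjusted p = 0.318), and was 0.10 without K14J29 and 0.32 without K14J26. The ratio of P4ha2 to P4ha1 per kb was 0.927 to 1.09 in WT and 1.07 to 2.62 in mutants, highest in K14J26.

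The levels of Ndrg1 and P4ha2 are set here beside the marker sums of the mineral-forming cells. Among mutants K14J26 had the highest values of Ndrg1, P4ha2 and both marker sums, K14J29 and K14J30 followed, and K14J28 had the lowest. Among WT embryos J6 was highest for the same 4 measures. With the mean log2 level of 5 enamel genes as a covariate, which was added after the data were seen and which runs with genotype, the value was 0.33 (adjusted p = 0.215) for Ndrg1, 0.00 (0.993) for P4ha2 and -0.17 (0.472) for Pdk1. Pgam1, Pfkfb4 and Ddit4 were at 0.21, 0.27 and 0.29 in that fit, and were not called. Vegfa and Egln1 lost the call with values close to those without the covariate, 0.21 (0.212) and -0.25 (0.152). With the same covariate Bhlhe40 was the 1 member called (-0.46, adjusted p = 0.0384). Genotype and enamel gene level cannot be told apart with these embryos.

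**Figure D3:**
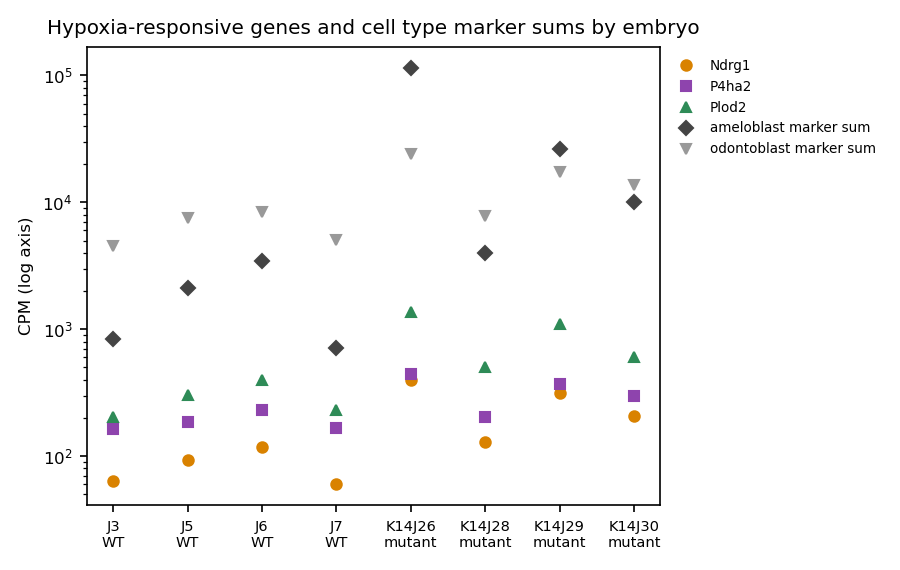
CPM on a log axis for Ndrg1, P4ha2 and Plod2 and for the summed ameloblast and odontoblast markers in each WT and mutant embryo, 1 point per embryo. K14J26 is highest and K14J28 lowest of the mutants for all 5, and J6 is the highest WT embryo.

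Ddit4 (chr10:59949669-59951834), which restrains mTOR signalling under stress, was at 33.5, 33.4, 42.1 and 32.4 CPM in J3, J5, J6 and J7 and at 51.4, 43.2, 53.6 and 52.6 CPM in K14J26, K14J28, K14J29 and K14J30. The groups did not overlap, but J6 came close to K14J28. Ddit4 rose by 0.51 on the log2 scale (SE 0.10, adjusted p = 0.0182), with an adjusted p of 0.0579 to 0.0651 without J3, J5, J7 or K14J29. Vegfa (chr17:46016993-46032369), the main angiogenic growth factor, had a small but even difference. It was at 75.0, 76.7, 68.9 and 70.1 CPM in J3, J5, J6 and J7, and at 89.0, 86.0, 83.9 and 82.7 CPM in the mutants in the same order as above. All 4 mutants exceeded all 4 WT embryos, and the log2 fold change was 0.23 ± 0.06 (SE, adjusted p = 0.0316). Vegfa was called without K14J26, K14J28 or K14J30, and had an adjusted p of 0.0607 to 0.0920 without any of the other 5 embryos. With Xist as a covariate it was at 0.24 and not called (adjusted p = 0.0654). Scaled by library size alone, which moved the median of all genes to -0.09, its value was 0.13 (adjusted p = 0.267).

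Bhlhe40 (chr6:108660629-108666925), a repressor of transcription linked to hypoxia and to the circadian clock, fell in mutant molars. It was at 47.7, 48.4, 48.2 and 50.6 CPM in J3, J5, J6 and J7, and at 43.4, 37.0, 38.4 and 36.9 CPM in K14J26, K14J28, K14J29 and K14J30. The groups did not overlap, and K14J26 lay nearest to WT. Bhlhe40 fell by 0.33 on the log2 scale (SE 0.07, adjusted p = 0.0195), and its adjusted p was 0.0539 to 0.0663 without J3, J7 or K14J29. The call was also lost with Xist as a covariate (-0.27, adjusted p = 0.0680) and with the skeletal muscle score as a covariate (-0.33, adjusted p = 0.0972). The strict hypoxia markers were scarce. Car9, a carbonic anhydrase induced by HIF, was at 1.53 to 1.94 CPM in WT and 1.06 to 2.08 CPM in mutants. Adm, a vasodilator peptide, was at 1.11 to 1.49 CPM and 0.901 to 1.44 CPM, and Ankrd37 at 1.38 to 2.27 CPM and 0.865 to 2.44 CPM. None of the 3 passed the test, with values of -0.09, -0.32 and -0.02, and the interval of Ankrd37, from -0.73 to 0.68, was the widest among the members after that of Ndrg1. They rest on 18 to 63 counts per embryo. Car9 shares exon sequence with Gm12454 on the other strand (2.34 CPM) and Ankrd37 with Ufsp2 (41.2 CPM, value 0.48, adjusted p = 0.0127), so reads of the shared sequence cannot be told apart here either.

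**Figure D4:**
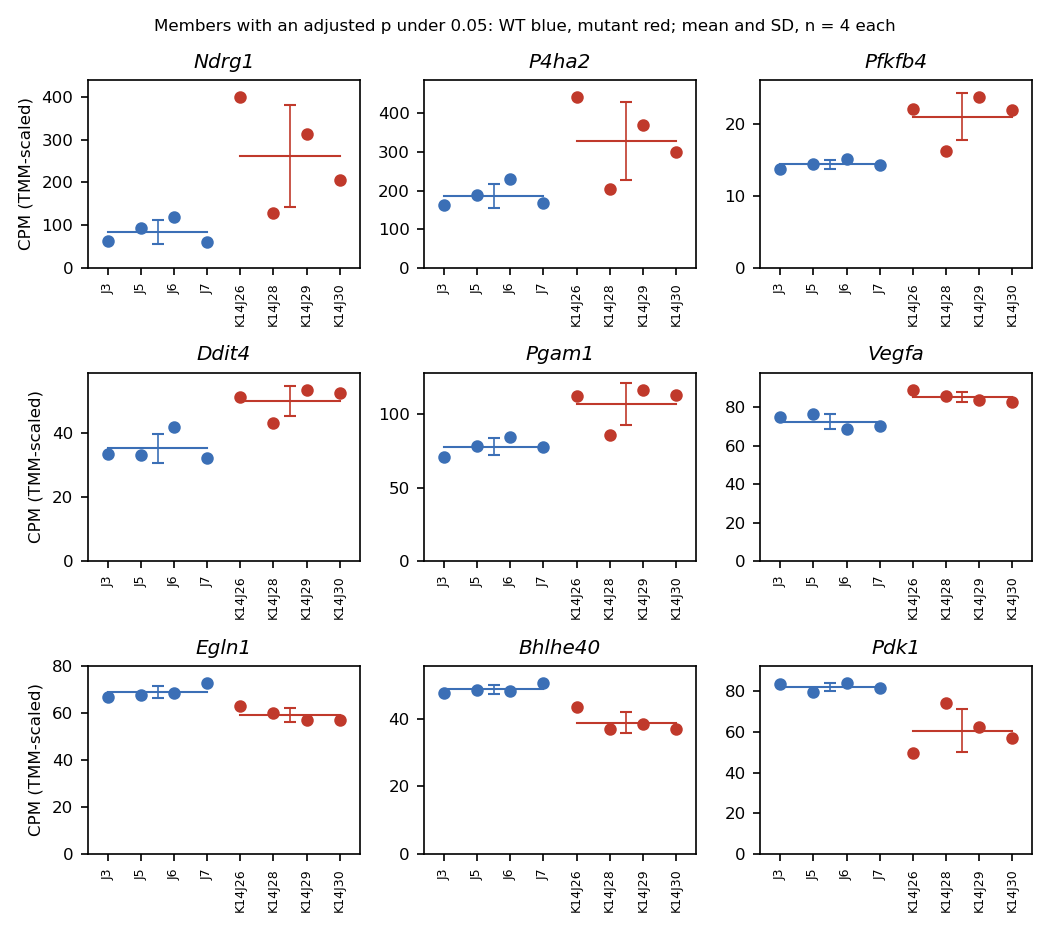
CPM per embryo for the 9 members with an adjusted p under 0.05, WT in blue and mutant in red, with the group mean as a horizontal line and SD as an error bar (n = 4 each). The groups are apart for 8 of the 9, and for P4ha2 K14J28 at 203 CPM lies under J6 at 231 CPM.

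Mutant molars varied more among themselves than WT molars did. The coefficient of variation was larger in mutants for 29 of the 33 members, with a median of 12.6% against 5.94%. The same count was not made over all genes, so the wider spread is not shown to be particular to the members. K14J26 had the lowest level of the 8 embryos for 12 members, 8 of them glycolytic enzymes (Pfkl, Pfkp, Tpi1, Gapdh, Pgk1, Eno2, Pkm and Ldha), and the highest for 7, including Ndrg1, P4ha2, Hk2 and Pfkm. It had the highest sum of ameloblast markers and the smallest TMM factor, and the part of these in its values was not tested. J6 and J7, the embryos with skeletal muscle transcripts, had the lowest level for 1 and 3 members and the highest for 1 and 5. Muscle enolase, Eno3, was at 28.95 and 21.6 CPM in J6 and J7 and at 12.0 to 15.1 CPM in the other 6 embryos. Without J6 and J7 no member was called in either direction, and 5 passed the second threshold. That fit has 2 WT embryos, and the values of the 9 called members lay between -0.43 and 1.73 with the same signs.

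The surrounding metabolism was read from further lists of named genes, whose counts can be read against the 9.52% of all genes called higher and the 6.61% called lower. Of 15 other glycolytic isozymes and side-branch genes tested (of 23), Pfkfb2, another fructose 2,6-bisphosphate enzyme, rose (0.32, adjusted p = 0.0426) and Ldhd, the mitochondrial D-lactate dehydrogenase, fell by 0.72 (adjusted p = 0.0299). Of 12 genes for the entry of pyruvate into mitochondria, Pdhx, a component of the pyruvate dehydrogenase complex, and Pdp2, a phosphatase that activates that complex, were higher (0.36 and 0.70, adjusted p = 0.0375 and 0.0144). Pdp2 was at 4.32 to 5.51 CPM in WT and 7.30 to 9.57 CPM in mutants. No gene of this list was called lower by edgeR or DESeq2, and 1 was lower at an unadjusted p under 0.05. Of 8 pentose phosphate genes, Pgd, which yields NADPH, was higher (0.38, adjusted p = 0.0244) and Tkt, transketolase, was lower (-0.32, adjusted p = 0.0343). The transketolase level was 272 to 286 CPM in WT and 194 to 252 CPM in mutants.

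Of 7 glucose and lactate transporter genes, Slc2a3, a glucose transporter, was lower (-0.68, adjusted p = 0.0432, groups overlapping) and Slc16a7, a carrier of lactate and pyruvate, was higher (0.55, adjusted p = 0.0448). Slc2a1, the glucose transporter that HIF is known to raise, was at 45.6 to 57.9 CPM in WT and 58.4 to 62.8 CPM in mutants, and its value of 0.20 did not pass (adjusted p = 0.102). Of 15 other components of the HIF pathway, 3 were lower by edgeR and also 3 by DESeq2, with 5 lower at an unadjusted p under 0.05, and none was higher by any of these. The 3 called by edgeR were Arnt2, a partner subunit of HIF (-0.55, adjusted p = 0.0424), Vhl, which recognises hydroxylated HIF for destruction (-0.34, adjusted p = 0.0189), and Siah1a, which targets Egln proteins (-0.35, adjusted p = 0.0448). Vhl was at 69.99 to 77.1 CPM in WT and 53.2 to 62.3 CPM in mutants, without overlap.

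Of 29 further genes that respond to hypoxia, 8 were higher by edgeR (9.52% of all genes were) and none was lower, with 2 lower by DESeq2 and 2 at an unadjusted p under 0.05. The 5 with the largest change were Plod2 (1.65, adjusted p = 0.0175), Lox (0.999, 0.0166), Angptl4 (0.80, 0.0440), Vldlr (0.68, 0.0252) and Insig2 (0.58, 0.00779). Plod2, which hydroxylates collagen lysines, was at 203 to 397 CPM in WT and 500.4 to 1364 CPM in mutants, and Lox, which cross-links collagen, at 63.7 to 105 and 127 to 217 CPM. Of 8 tested genes for collagen modification, P3h1, a prolyl 3-hydroxylase, was higher (0.51, adjusted p = 0.0427, groups overlapping), and no gene was lower by edgeR, DESeq2 or an unadjusted p under 0.05. Without K14J26 the further hypoxia list gave 6 higher and 2 lower, and the collagen list 0. Of the 20 genes called in these other lists, 3, 6, 8 and 2 stayed called without J3, J5, J6 or J7, and 14, 18, 1 and 13 without K14J26, K14J28, K14J29 or K14J30. Calls over all genes moved in the same fits, from 1631 higher and 1133 lower in the main fit. In the order of embryos just given, 373, 451, 854, 300, 1746, 2479, 250 and 1337 were higher. Those called lower were 287, 388, 553, 236, 1349, 1843, 170 and 824. With the enamel covariate Plod2 was at 0.39 (adjusted p = 0.154) and Lox at 0.41 (adjusted p = 0.191). The odontoblast marker sum, at 4506 to 8442 CPM in WT and 7810 to 24159 CPM in mutants, overlapped between the groups and was not itself tested. Of 6 osteoblast markers, 3 were called higher: Bglap (2.56, adjusted p = 0.0165, groups apart and highest in K14J26), Bglap2 (1.91, 0.0217) and Sp7 (0.38, 0.0390). The part of either marker list in P4ha2 and these genes was not tested.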

How the data were processed

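Each library was poly(A) RNA of the pooled lower first molars of 1 embryo, prepared with a kit that does not mark strand. Reads were aligned with STAR to GRCm38.p3 per the submitters' processing notes, which name featureCounts, while the methods name GenomicRanges for counting. The authors deposited raw counts per Ensembl gene, with no normalization. Treatment of multiply mapped reads is not given in the sources used here.

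Symbols, exons and coordinates came from GENCODE M21 (GRCm38), where 42548 of the 43629 identifiers were found. A gene entered the test when 2 or more of the 4 WT or of the 4 mutant embryos had 10 counts or more (17129 genes). Libraries were scaled by TMM and tested with edgeR 4.0.16 (quasi-likelihood, R 4.3.3, Benjamini-Hochberg over genes kept, no covariate). SE is the log2 fold change over the square root of F, and 95% intervals use t on 9.36 degrees of freedom. The p-values weigh the difference between groups against the spread between embryos, which edgeR estimates partly from the other genes. CPM was computed from the counts and TMM factors. Similar genes were found with BLAST+ 2.17.0 (at least 90% identity over 200 bases). The code was tested on simulated data.

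Members and lists were chosen with earlier results of these data known. Values in every embryo are given for members with an adjusted p under 0.05 or a log2 fold change of at least 0.5 in size; from each other list the called genes are named, at most 5 by size. Pgk1, Gapdh, Ldha and the other genes given beside these were chosen after their values were seen. Alternatives were DESeq2 1.42.0, edgeR's robust option, scaling by RLE, upper quartile or library size, other count filters, leaving out abundant genes or embryos, and muscle, Xist and enamel covariates. Protein sequences were not compared.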

Additional observations from a re-analysis of the deposited data

Results flagged for a closer look

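The values of the 33 genes were checked in each group of 4 embryos for 1 embryo far from the other 3, which made 66 checks, and 2 stood out. Chance alone flags about 1 in 20 such groups, so 2 in 66 checks are no more than chance would give. Pgam1 was at 85.7 CPM in the mutant K14J28, while the other 3 mutants lay between 112 and 116 CPM. Ddit4 was at 42.1 CPM in the WT embryo J6, while the other 3 WT embryos lay between 32.4 and 33.5 CPM. Both values narrow the gap between the groups. Without K14J28 the log2 fold change of Pgam1 was 0.54 (adjusted p = 0.00420) and without J6 that of Ddit4 was 0.60 (adjusted p = 0.0216).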

How the results depend on the processing

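The 9 called members kept their sign in the 20 alternative fits, and 16 of the 24 members not called changed sign in at least 1, with the enamel covariate the largest such values being 0.43 (Ankrd37) and 0.32 (Ldha), neither called. Of the 180 values of the called members 75 lost the call, and of the 480 of the others 5 gained one. With 6 members higher and 3 lower as the base, leaving out 1 embryo gave 0 to 7 higher and 0 to 4 lower. In the same fits 2 to 6 passed the second threshold (unadjusted p up to 0.05 and log2 fold change of 0.5 or more in size). Over all genes, 250 to 2479 were higher and 170 to 1843 lower. Without J6 and J7, 0 members were higher and 0 lower, and 3 and 4 of all genes, and Jag1 was at -1.18 and no longer called. With the skeletal muscle score as a covariate, 0 and 0 members and 39 and 40 of all genes were called. In that fit 5 members passed the second threshold, and the 9 members lay between -0.41 (Pdk1) and 1.72 (Ndrg1). With the enamel covariate, added after the data were seen, 0 members were higher, 1 was lower and 0 passed the second threshold. Of all genes, 204 and 124 were called. With Xist as a covariate 5 members were higher and 1 was lower, 7 passed the second threshold and 750 of all genes were lower. Bhlhe40, Egln1 and Vegfa lost the call in that fit. Upper-quartile scaling left 2 members past the second threshold and called 1363 of all genes higher and 1448 lower. Library size alone called 855 higher and 1060 lower. Lower calls thus outnumbered higher calls under both scalings, unlike in the main fit (1631 higher and 1133 lower). DESeq2 called 2244 higher and 1718 lower. At an unadjusted p under 0.05, 7 members were higher and 5 lower, against 19.1% and 15.7% of all genes. Before the start site alone, the core sequences occurred in 90% of members and 58.9% of tested genes. No paired analysis was possible because the embryo numbers of the groups share no value. Car9, Adm and Ankrd37 rest on 18 to 63 counts per embryo.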
